A study of Mus musculus with 12 samples.

Results

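Among the array probes whose signal rose after Sox2 was switched off in mouse embryonic stem cells, 182 stood near their starting level at 24 h and made most of their rise later. These 182 slow risers were taken from the 42006 distinct probes of the array. They were selected on measured values: x is the log2 ratio of sample (Cy3) over reference (Cy5) processed signal, D(t) is the mean x at t h minus the mean x at 0 h, and E is the mean x of the 72 and 96 h arrays minus the mean x at 0 h. A slow riser had an E of at least 1 (a 2-fold rise), a D(24) under 0.15 of E and a D(48) under 0.5 of E. It also had Cy3 well above background on the 72 and 96 h arrays and Cy5 well above background on all 12 arrays. Of 39241 probes detected in this way, 1203 had an E of at least 1, 338 of these also met the limit at 24 h, and 182 met both limits, which is 15.1% of the risers. The other 1021 risers serve as the comparison below.

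The cells were 2TS22C, an inducible Sox2 knockout line in which tetracycline (Tc) shuts off Sox2. They were grown in medium with the cytokine LIF, without Tc for the controls (0 h) and with Tc for 3, 6, 12, 24, 48, 72 or 96 h. There were 2 arrays each at 0, 6, 24 and 72 h and 1 array each at 3, 12, 48 and 96 h. On every array the Cy3 channel held the cells' RNA and the Cy5 channel a reference RNA pooled from mouse cell lines, with no dye swap. All groups share the engineered line and LIF, and all but 0 h share Tc. No untreated array is labelled for a later time, so hours in Tc and hours in culture cannot be told apart. The labels name 1 line. They do not state whether the replicates of a time were grown apart, and the spread behind each p-value may therefore be technical. The description field gives the untreated form for every sample, and the titles, which give Tc from 3 h on, were followed.

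Sox2 is a transcription factor that binds DNA together with Oct4 (Pou5f1) at the enhancers of many genes of the pluripotent state. Mouse embryonic stem cells that lose Sox2 are known to leave that state over a few days and to take on features of trophectoderm, the outer layer of the early embryo, even when LIF is present. In a time course of such a loss, genes that change early and genes that change late are read as separate sets, and the slow risers are a late set. The files give probe names and no genes for them. The members are therefore described by identifier and sequence, and the Sox2 probe, the cell type markers and the gene lists were not examined. RNA was taken from whole cultures, in which more cells with a transcript and more transcript per cell cannot be told apart.

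The probes that the results turn on are shown first. All are 60-base oligonucleotides, printed as the scanner files give them. The pair with the largest E among members whose Cy3 passed the background test on all 12 arrays stands for the size of the rise. The capitals used further down mark overlaps only, and these sequences have none.
Z00025455-1: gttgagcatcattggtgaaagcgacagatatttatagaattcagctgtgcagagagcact
Z00059948-1: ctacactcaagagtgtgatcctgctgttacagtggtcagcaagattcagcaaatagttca

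A further pair is shown because these were the members called in the test at 12 h, and was singled out after the values were seen.
Z00062078-1: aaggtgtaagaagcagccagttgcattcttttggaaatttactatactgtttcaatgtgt
Z00050334-1: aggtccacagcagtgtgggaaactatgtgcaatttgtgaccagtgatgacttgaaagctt

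The next 6 sequences were singled out because a member's end repeats at least 15 bases of another probe's start, so that each pair can read 1 transcript. Capitals mark the bases shared by the pair. Z00030340-1 and Z00057703-1 share 33 bases, Z00011806-1 and Z00056720-1 share 18, and Z00031878-1 shares 45 with Z00030372-1, which was not a member.
Z00057703-1: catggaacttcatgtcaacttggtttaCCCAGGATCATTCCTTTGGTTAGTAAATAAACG
Z00030340-1: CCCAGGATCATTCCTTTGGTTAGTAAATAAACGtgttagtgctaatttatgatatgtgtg
Z00011806-1: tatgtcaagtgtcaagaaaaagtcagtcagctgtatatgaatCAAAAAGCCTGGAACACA
Z00056720-1: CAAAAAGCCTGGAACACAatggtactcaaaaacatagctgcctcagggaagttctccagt
Z00031878-1: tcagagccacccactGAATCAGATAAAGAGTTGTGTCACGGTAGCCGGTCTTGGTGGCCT
Z00030372-1: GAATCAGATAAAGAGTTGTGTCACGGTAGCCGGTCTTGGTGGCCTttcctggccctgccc

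One member could be placed in the genome from the sequences at hand. RefSeq promoter windows, which span 250 bases before to 50 bases after each gene's start in build GRCm38.p6, held a whole-probe match for 289 of the 42006 probes and for 1 of the 182 members.
Z00060972-1: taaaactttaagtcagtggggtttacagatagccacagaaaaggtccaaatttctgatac
This probe lies at chr2:84507015-84507074 on the plus strand. It is 142 to 201 bases before the start of Gm13710, which is annotated on the minus strand, and 0 genes of the RefSeq table span it. The match is a position only, and which transcript the probe reads was not examined.

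Over the first 24 h the slow risers as a group stayed at the 0 h level. The median change from the 0 h mean was -0.02 log2 units on the 3 h array, 0.00 and -0.02 on the 6 h arrays, -0.02 on the 12 h array, and 0.05 and 0.03 on the 24 h arrays. It was then 0.49 on the 48 h array (quartiles 0.38 and 0.60), 1.17 and 1.14 on the 72 h arrays (quartiles 1.00 and 1.43, and 0.95 and 1.30), and 1.59 on the 96 h array (quartiles 1.37 and 1.87). The other risers had a median of 0.18 on the 12 h array, 0.42 and 0.40 on the 24 h arrays, 0.95 on the 48 h array, 1.26 and 1.22 on the 72 h arrays and 1.44 on the 96 h array. Arrays of 0, 24, 48, 72 and 96 h chose the members, so these values describe the choice and carry no test. The slow risers lagged at 48 h and stood above the other risers' median at 96 h.

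The size of the rise was modest for most members. E ran from 1.00 to 2.60 with a median of 1.29, a 2.44-fold rise, and quartiles of 1.11 and 1.48. E was at least 1.5 in 41 of 182 members, 306 of 1021 other risers and 347 of 39241 detected probes. It was at least 2 in 13, 82 and 95 of these. The median E of the other risers was 1.30. Of all 41754 probes kept for testing, 2.99% had an E of at least 1, which is the rule's own criterion. The SD between the replicates of a time, as a root mean square over the members, was 0.10 at 0 h, 0.14 at 6 h, 0.11 at 24 h and 0.15 at 72 h.

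Z00025455-1 had the largest E, 2.60, or 6.06-fold. Its log2 ratio was -1.48 and -1.55 on the 0 h arrays, -1.47 on the 3 h array, -1.53 and -1.64 on the 6 h arrays, -1.52 on the 12 h array and -1.14 and -1.12 on the 24 h arrays. The 48 h array gave -0.23, the 72 h arrays 0.90 and 0.71, and the 96 h array 1.66. The 6 arrays of 0 to 12 h lay within a narrow band, both 24 h arrays lay above that band, and each later time lay above the one before it. At 24 h it had reached 14.8% of E and at 48 h 49.1%, close to both limits of the rule.

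Z00059948-1 was next, with an E of 2.53, or 5.77-fold. It read 1.84 and 1.28 (0 h), 1.73 (3 h), 1.36 and 1.82 (6 h), 1.74 (12 h) and 1.87 and 1.76 (24 h). It read 2.51 (48 h), 4.24 and 3.90 (72 h) and 4.14 (96 h). Its replicates were further apart than those of most members (SD 0.40 among the 0 h arrays and 0.24 among the 72 h arrays, n = 2 each), and 1 of the 0 h arrays lay between the 24 h arrays. The 96 h array lay between the 72 h arrays, so no rise after 72 h was visible in this probe.

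At 48 h the rise had begun in nearly all members, although the set was proposed as one that goes up only after 48 h. The 48 h array lay above both 0 h and both 24 h arrays in 171 of 182 members (94.0%). This held for 25.4% of all probes kept and for 94.7% of the other risers. The median member had reached 37.8% of E at 48 h, with quartiles of 29.6% and 43.1%, under a limit of 50% set by the rule. D(48) was at least 0.5 in 85 members (7.55% of all probes kept) and below 0.25 in 21 (82.1%). With a single array at 48 h, the spread of that time is unknown.

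D(48) was at or below 0 in 5 members, a state in which 52.1% of all probes kept were found. These 5, singled out after their values were seen, were Z00035360-1 with a D(48) of -0.22, Z00062597-1 with -0.11, Z00033660-1 with -0.03, and Z00057703-1 and Z00058587-1 with -0.02 each. Their D(72) ran from 0.85 to 1.18. They were at or below their 0 h mean on the 48 h array and above it on both 72 h arrays. Before that, Z00057703-1 and Z00058587-1 had stood slightly above 0 h, with a D(24) of 0.14 and 0.13.

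Between 48 and 72 h the members made their largest median step. The median step was 0.69 there, after 0.45 between 24 and 48 h and before 0.45 between 72 and 96 h. For the other risers the steps in order of time were 0.51, 0.33 and 0.23. Both 72 h arrays lay above the 48 h array in 182 of 182 members, against 37.7% of all probes kept and 81.7% of the other risers. The rule's limit at 48 h favours such a step.

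The rise went on after 72 h in most members. The 96 h array lay above both 72 h arrays in 153 of 182 members (84.1%, against 38.8% of all probes kept and 72.8% of the other risers). It lay between the 72 h arrays in 16 and below both in 13 (36.2% of all probes kept). The median difference, 96 h minus the 72 h mean, was 0.44, with a range of -0.59 to 1.33. The 96 h array was at least 1 above the 72 h mean in 11 members, against 0.117% of all probes kept and 3 of the 1021 other risers. The mean rose at each of the steps from 24 to 96 h in 158 members (86.8%, against 12.3% of all probes kept and 67.9% of the other risers). The 96 h array is part of E, and a high value there also widens the limits at 24 and 48 h. These counts therefore describe the choice. Applied without the 96 h array, the rule chose 113 probes, 107 of them among the 182.

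The deepest fall after 72 h was in Z00025276-1, singled out after its values were seen. Its D(72) was 1.22 and its D(96) 0.62, a difference of -0.59. In Z00015823-1, the next, D(72) was 1.79 and D(96) 1.29. Both had risen by 48 h, with D(48) of 0.26 and 0.57, so 72 h was their highest time.

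The members' last step was also read by starting level. At 0 h the log2 ratio was below -1 in 71 members, between -1 and 1 in 93 and above 1 in 18. The 96 h array exceeded the 72 h mean in 69 of the 71, in 78 of the 93 and in 15 of the 18. Over all starting levels it did so in 78.5% of the other risers and 51.2% of all probes kept. The median last step was 0.57, 0.38 and 0.37 in this order, while the median share of E reached at 48 h was 37.8%, 38.4% and 35.0%. The 0, 72 and 96 h arrays are all in the rule, so the grouping is a description. Other probes were not grouped by starting level, so no trait particular to the members is read from it.

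The members differed widely in level. The log2 ratio to the reference at 0 h ran from -5.20 to 2.73 with a median of -0.30. It was below the reference in 108 members (59.3%, against 53.8% of detected probes). The mean of the 72 and 96 h arrays was above the reference in 123 (67.6%, against 69.3% of the other risers and 45.3% of detected probes). From below to above the reference, 49 of 182 members crossed. So did 334 of 1021 other risers and 2589 of 39241 detected probes. The rule's limit on E favours such a crossing. The reference is a pool of cell lines, so this ratio compares 2 RNAs for 1 probe and gives no order between probes.

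The change lay in the channel that held the cells' RNA. With each channel normalized on its own by quantiles, the mean of the 72 and 96 h arrays minus 0 h had a median of 1.30 in Cy3 and 0.01 in Cy5. The Cy3 difference was at least 1 in 161 of 182 members, 844 of 1020 other risers and 1326 of 41739 probes kept. It was above 0 in all 182 members, 1018 of the other risers and 20531 of the probes kept. In Cy5, which held the same reference on every array, the difference was at least 1 in 0 members and in 51 of 41754 probes kept. Against the 24 h arrays the medians were 1.34 in Cy3 and 0.04 in Cy5. Both channels of these arrays enter the rule, so the values describe the choice.

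Detection limited few of these values. Cy3 was well above background on all 12 arrays in 181 of 182 members. The exception, Z00025716-1, missed it on 1 of the 0 h arrays. The members' median Cy3 signal over background lay between 157 and 184 units on the 6 arrays up to 12 h. It was 182 and 221 units on the 24 h arrays, 293 on the 48 h array, 512 and 535 on the 72 h arrays and 990 on the 96 h array. These units are not scaled between arrays. Over all probes kept the median was 117 on the 12 h array, 150 and 165 on the 72 h arrays and 223 on the 96 h array. The members' median processed Cy3 signal was 3410 and 3270 on the 72 h arrays and 4610 on the 96 h array. Outlier flags fell on 4 member spots, which the fit below dropped, and 1 member spot was saturated.

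Image analysis was run on 2 days, with the 0 to 12 h arrays on the first and the 24 to 96 h arrays on the second. Differences from 0 h at 24 h and later therefore cross the days, where day and time cannot be told apart. The times from 24 to 96 h lie inside the second day. All 72 and 96 h arrays stood above both 24 h arrays in 182 of 182 members (23.3% of all probes kept) and above all 9 earlier arrays in 181 (10.8%). Among the other risers the shares were 95.8% and 77.5%. The rule sets the late mean well above the 24 h mean in every member, so these counts describe the choice, and nothing is read from them about the day. The members' median Cy5 signal over background, not scaled between arrays, was 558 to 602 units on the first day and 753 to 981 on the second. Over all probes kept it was 232 to 286 and then 339 to 434. The members' median processed Cy5 signal was 1950 to 2140 on the first day and 1900 to 2380 on the second.

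The 3, 6 and 12 h arrays had no part in the choice of members, so change within them could be tested. The contrast of 12 h against the mean of 3 and 6 h was fitted over all probes with limma, with Benjamini-Hochberg adjustment and a call at an adjusted p under 0.05. All these arrays belong to the first image analysis day. Of 41626 probes tested, 304 were called (0.73%): 123 higher at 12 h (0.295%) and 181 lower (0.435%). Of the 182 members, 1 was called higher and 1 lower. The members' share was near the background in each direction, and nothing is read from it for the set.

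In the log2 ratios the members' differences centred on 0. Their median was 0.01 log2 units, as was that of all probes tested, and 93 of 182 were above 0, against 54.9% of all probes. The members' quartiles were -0.11 and 0.12, against -0.07 and 0.09 for all probes. The 5th and 95th percentiles were -0.34 and 0.25, against -0.29 and 0.29, and the extremes were -0.58 and 0.61. An unadjusted p under 0.05 was found for 29 members (15.9%) and for 11.8% of all probes. In simulated data, 200 probes were changed and all others were kept level from 3 to 12 h. There this contrast recovered 80% of changes of 1 log2 unit and 0% of changes of 0.5. The real data differ from that setting, and a member with a difference of -0.43 was called in them. The simulation therefore does not give the smallest change detectable here.

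Z00062078-1 rose at 12 h. It read -2.55 and -2.64 (0 h), -2.67 (3 h), -2.30 and -2.24 (6 h) and -1.86 (12 h), and was back at -2.43 and -2.46 (24 h). It then read -2.16 (48 h), -1.48 and -1.61 (72 h) and -0.60 (96 h). The difference at 12 h was 0.61 (SE 0.07, limma adjusted p = 0.035). The 12 h array lay above all 5 earlier arrays and above the 24 and 48 h arrays, so its values went up, down and up again. Of these moves, the contrast tested the first alone. The rule requires a low D(24) and a high E, so the later moves are part of the choice.

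Z00050334-1 fell at 12 h. It read 0.42 on both 0 h arrays, 0.40 (3 h), 0.31 on both 6 h arrays and -0.08 (12 h), the lowest of its 12 values. It read 0.31 and 0.25 (24 h), 0.71 (48 h), 1.42 and 1.35 (72 h) and 1.70 (96 h). The difference at 12 h was -0.43 (SE 0.06, limma adjusted p = 0.041). Each call rests on the single 12 h array. Neither was made at an adjusted p under 0.01 or in Cy3 alone (adjusted p = 0.397 and 0.485), or after leaving out any 1 array of 0, 3, 6, 24 or 72 h.

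From 3 to 6 h no member was called, with 6 members at an unadjusted p under 0.05 (3.3%, against 7.58% of all probes tested). Limma called 4 of 41698 probes in this comparison (0.00959%), all lower at 6 h. The lowest adjusted p of a member was 0.37. The members' median difference was 0.00, with extremes of -0.35 and 0.43. It shares the 3 and 6 h arrays with the contrast at 12 h.

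Against 0 h, the early arrays of the members scattered to both sides. The 12 h array lay above both 0 h arrays in 69 members (37.9%, against 38.5% of all probes kept) and below both in 76 (41.8%, against 37.8%). D(12) was at least 0.4 in 6 members (4.38% of all probes kept) and at most -0.4 in 8 (4.23%). These shares lie near those of all probes kept. The 12 h array lay below both 0 h, the 3 h and both 6 h arrays in 47 members. That is 25.8%, against 17.6% of all probes kept and 4.8% of the other risers. It lay above all of these arrays in 42 members (23.1%, against 22.3% and 56.9%). The 0 h arrays are in the rule, and these counts were not tested. Among the 6 with a D(12) of at least 0.4, D(24) ran from -0.04 to 0.17. The rule requires a low D(24), so this return after 12 h is part of the choice. The largest D(12), 0.76, was that of Z00025716-1, with an adjusted p of 0.463 in limma's contrast of 12 h against 3 and 6 h.

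At 24 h the rule capped the change, and members lay on both sides of 0. Both 24 h arrays lay above both 0 h arrays in 66 members (36.3%, against 30.2% of all probes kept) and below both in 44 (24.2%, against 25.9%). D(24) was at or below -0.25 in 13 members (9.41% of all probes kept). In those 13 the median D(12) was -0.24, the median D(24) -0.34, the median D(48) 0.40 and the median D(96) 1.48. The 13 are 7.14% of the members, a share below that of all probes kept, so no dip is read for the set. Z00062597-1 had the lowest D(24), -0.62, with a D(12) of -0.70. The 13 were picked by their low D(24), which the rule permits without limit, and the rule requires their later rise.

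A second reading of the replicated times was made with arrays whose ratios had no part in the choice. The rule was applied to the arrays numbered 1 alone, with the single 48 and 96 h arrays, which chose 239 probes. The detection conditions still used all arrays, those numbered 2 among them. Of the 239, 156 were among the 182 members (65.3% of the 239 and 85.7% of the 182). Both choices used the arrays numbered 1 and the 48 and 96 h arrays. This overlap is therefore built in to a large part and is no support for the members. On the arrays numbered 2, the 72 h array lay above the 0 h array in 238 of the 239, against 48.6% of all probes kept. The difference was at least 0.5 in 235, against 9.92%. Its median was 1.10, with 5th and 95th percentiles of 0.63 and 1.86, and over all probes kept it was -0.01. The 24 h array numbered 2 stood at a median of 0.06 above 0 h, and 178 of the 239 stayed under 0.15 of the 72 h difference. For this last count the share over all probes kept was not computed, so nothing is read from it. Both sets of arrays share their time points and image analysis days. The labels do not state whether they were grown apart, so the agreement between them may be technical.

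Members near a limit differed little from probes just outside it. The highest D(24) inside was 14.8% of E and the lowest outside 15.2%, and the highest D(48) inside was 49.9% and the lowest outside 50.0%. The smallest E inside and the largest outside were both 1.00 after rounding. With the other conditions met, 104 risers were outside by their D(24) alone, 156 by their D(48) alone and 130 probes by an E of 0.8 to 1.

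The overlapping probes gave a check on single members. Z00030340-1 and Z00057703-1 followed each other on all 12 arrays. Z00030340-1 read -3.00 and -3.07 (0 h), -3.06 (3 h), -3.02 and -3.04 (6 h), -2.87 (12 h), -2.85 and -2.94 (24 h), -2.99 (48 h), -1.93 and -2.04 (72 h) and -1.28 (96 h). Z00057703-1 read -3.00 and -3.04 (0 h), -3.04 (48 h), -1.94 and -2.06 (72 h) and -1.29 (96 h). The root mean square of their differences over the 12 arrays was 0.025 log2 units, the smallest of 16471 pairs of members, whose median was 1.48. D(48) was 0.05 and -0.02 and D(72) was 1.05 and 1.02, so both stood near the 0 h level at 48 h.

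The other overlaps were alike in shape and less so in size. Both probes of the pair sharing 18 bases are members, so the rule itself gives them a like shape. Z00011806-1 had an E of 1.98 and Z00056720-1 of 1.57, and their root mean square difference was 0.37. After centring it was 0.20, against a median of 0.24 over the 16471 pairs of members, so this pair gave little check beyond membership. Z00011806-1 read 1.80 and 1.86 (72 h) and 2.38 (96 h), and Z00056720-1 read 1.49 and 1.29 and then 1.57. Z00031878-1 had an E of 1.44 and its partner Z00030372-1 one of 0.86, which kept the partner out of the members. At 0 h they read -2.01 and -1.95 against -0.98 and -0.95, and at 96 h -0.04 against 0.22, so the member started lower and ended near its partner. Pearson's r over the 12 arrays, given as a description, was 0.999, 0.983 and 0.992 for the pairs sharing 33, 18 and 45 bases.

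The probe placed before Gm13710, Z00060972-1, rose in the manner of the set. It read -1.84 and -1.74 (0 h), -1.70 (3 h), -1.79 and -1.82 (6 h), -1.67 (12 h) and -1.63 and -1.61 (24 h). It read -1.28 (48 h), -0.69 and -0.70 (72 h) and -0.37 (96 h). Its E was 1.21, or 2.31-fold, and it had reached 42.7% of E at 48 h.

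In sequence the slow risers resembled the other risers. The median GC content of the probes was 40.8%, against 41.7% in the other risers and 45.0% in detected probes. The hexamer AATAAA, the usual polyadenylation signal when it stands on the transcript's strand, was found in the printed orientation in 20 members (11.0%), against 11.6% of the other risers and 6.75% of all probes. Its reverse complement TTTATT was found in 5 members (2.75%), against 2.74% and 3.42%. The bases shared by Z00030340-1 and Z00057703-1 hold AATAAA. A match of letters is not a site, and the strand of the transcript is not given for these probes.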

How the data were processed

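Sample RNA (Cy3) and pooled mouse reference RNA (Cy5) were hybridised on 12 arrays. Per the file headers, the scanner files were written by Agilent Feature Extraction 7.5.1 and hold an intensity for each spot. The processed signals used here are intensity values that the program had subtracted for background and normalized between dyes, per the file headers. As an alternative, the log10 values of the deposited series table were used, taken as sample over reference: its differences between arrays were within 0.01 log2 units of the scanner files' for 89.0% to 90.9% of probes. Its centring stays unknown; the medians of its columns were 2.98.

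Log2 ratios were averaged over the spots of a probe name. Probes with Cy3 well above background on at least 2 arrays were kept (41754 kept, 252 removed). Fits used lmFit and eBayes of limma 3.58.1 under R 4.3.3 on 8 time groups with 4 residual degrees of freedom and Benjamini-Hochberg adjustment. Spots with outlier flags were dropped in the fits, and times with 1 array were assumed to vary like the others. Both contrasts were run on simulated data (41246 probes, 200 of them changed). The number of arrays limits the precision.

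The members and lists were chosen with earlier results of these data known. The named probes were, by rule, the 2 with the largest E and Cy3 well above background on all 12 arrays. Gene lists and cell type markers were not run, since the files do not pair probes with genes. Promoter windows and gene starts are RefSeq's (GRCm38.p6). Alternatives covered signal, normalization, filter, threshold, variance model, block, rule limits and left-out arrays.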

Additional observations from a re-analysis of the deposited data

How the results depend on the processing

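In the test at 12 h, the counts of members called higher, members called lower and all probes called were 1, 1 and 304. They became 0, 0 and 32 at an adjusted p under 0.01, 2, 5 and 1263 with normexp (offset 50) and loess, 0, 0 and 19 in Cy3 alone, and 1, 4 and 921 with an intensity trend. Leaving out 1 array gave 0 to 1, 0 to 1 and 87 to 304. With the replicate number as a block they were 0, 0 and 89. Equal numbers were not treated as pairs, since the correlations of same-numbered deviations ran from -0.01 to 0.17 over 6 pairs of times. In Cy3 alone the members' median at 12 h was -0.09, against 0.00 for all probes tested. There 62 of 182 members were above 0, against 50.6% of all probes. From 3 to 6 h, 58 probes were called with normexp, 1 in Cy3 alone, 12 with a trend and 3 to 14 with 1 array left out. No member was called in any of these.

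The rule chose 312 probes with E of at least 0.8, 41 with E of at least 1.5, 107 with D(48) under 0.4 of E and 113 to 257 with 1 array left out. The 113 came without the 96 h array, and 107 of them were among the 182. Normexp chose 162 (125 shared) and Cy3 alone 266 (131 shared). The median E was 1.10 with normexp and 1.14 to 1.37 with 1 array left out. Causes were not tested. Other changes kept every count within 1.5 times and every median within 1 SD of its value. The 48 and 96 h values rest on 1 array each, which limits what D(48) and the last step can show.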

Other observations

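Members without shared sequence could also lie close together. After the pair that shares 33 bases, the next closest of the 16471 pairs was Z00023679-1 and Z00025255-1, whose log2 ratios differed by a root mean square of 0.07 over the 12 arrays and whose ends share no 15 bases. Whether they read 1 gene was not examined. The pair sharing 18 bases was the 1594th closest.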
